A study of Rattus norvegicus with 16 samples.

Results

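The miRNAs described here come from 1 stretch of the X chromosome that holds the hairpins of miR-322, miR-503, miR-351, miR-542 and miR-450a, and they were measured in the left ventricle of the rat heart. The cluster was taken by name, as the 7 rows miR-322-5p, miR-322-3p, miR-351-5p, miR-503-5p, miR-542-3p, miR-542-5p and miR-450a-5p. All 7 were among the 317 rat miRNAs listed in each of the 4 weekly count tables, and all 7 passed the filter on low counts that left 306 for testing. miR-503-3p, the other arm of the miR-503 hairpin, was also listed and is given beside them without being counted as a member.

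The samples were left ventricles of male Sprague Dawley rats on 0.4% Dyets chow. Surgery at 10 weeks of age was either the excision form of 5/6 nephrectomy (5/6Nx), which takes away most of the kidney mass, or a sham operation, and hearts were collected 2, 4, 5 or 7 weeks afterwards. Each of the 8 groups had 2 small RNA libraries (pools A and B), each from 2 to 3 rats, so 16 libraries in all; the rats also share strain, sex and diet, and no label states whether different rats went into the pools of a group. The p-values therefore measure the spread between these pools. Rat miRNAs held between 672077 and 3509916 counts per library, of which the cluster held 0.288% to 0.405%. The muscle miRNAs that mark cardiomyocytes (miR-1, miR-133a, miR-208a, miR-208b and miR-499) summed to between 38029 and 70619 CPM (counts scaled to a library total of 1000000) in the 16 libraries, and none of the 5 was missing. In tissue homogenates, fewer cells of a type and less RNA per cell cannot be told apart.

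A clustered group of miRNA hairpins is commonly cut from a shared primary transcript, after which each hairpin is processed into 2 strands, the 5p and the 3p arm, and usually 1 of them is kept in the silencing complex. Targets are chosen mainly by the seed, bases 2 to 8 from the 5′ end. miR-322 is the rodent counterpart of human miR-424. With miR-503 it is known for repressing regulators of the cell cycle such as Cdc25a and the D cyclins, and in mouse myoblasts for promoting the exit from the cell cycle during muscle differentiation. In mouse embryos miR-322 and miR-503 mark early heart progenitors. In mouse muscle progenitors miR-351 is known to target E2f3, and in human cells miR-542-3p targets survivin, an inhibitor of apoptosis.

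The mature sequences, from RefSeq with the GRCr8 build, are shown first because the seeds decide which members can share targets. Capitals mark the seed, and all lie on the minus strand of chromosome X.
miR-322-5p: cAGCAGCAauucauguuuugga
miR-503-5p: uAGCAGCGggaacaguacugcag
miR-351-5p: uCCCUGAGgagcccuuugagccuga
miR-542-3p: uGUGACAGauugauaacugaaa
miR-450a-5p: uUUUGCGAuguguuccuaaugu
miR-322-3p: aAACAUGAagcgcugcaaca
miR-542-5p: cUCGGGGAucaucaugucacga
miR-503-3p: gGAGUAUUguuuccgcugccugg
No 2 of these share a seed. The seeds of miR-322-5p and miR-503-5p match at 6 of 7 bases, and from the 5′ end the first 22 bases of the mature pair are identical at 11 positions.

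Outside the X chromosome, 2 of the seeds recur among the tested miRNAs, 277 of 306 of which had a RefSeq mature sequence. The seed of miR-322-5p is that of miR-15b-5p and miR-16-5p on chromosome 2 and of miR-195-5p and miR-497-5p on chromosome 10, a family also known for holding back the cell cycle. The seed of miR-351-5p is that of miR-125a-5p on chromosome 1 and of miR-125b-5p on chromosome 11.
miR-15b-5p: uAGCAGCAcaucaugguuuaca
miR-16-5p: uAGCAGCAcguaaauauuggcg
miR-195-5p: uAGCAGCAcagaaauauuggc
miR-497-5p: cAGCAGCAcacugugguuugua
miR-125a-5p: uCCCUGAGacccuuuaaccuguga
miR-125b-5p: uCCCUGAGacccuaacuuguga
Beyond the seed these differ from the cluster's miRNAs. Positions were compared from the 5′ end without gaps, so matches shifted by a base were not counted. In this way miR-322-5p matched miR-16-5p at 12 of 22 positions and miR-15b-5p at 16 of 22. miR-351-5p matched miR-125b-5p at 10 of 22, of which the first 8 were the shared 5′ end. One closer neighbour exists: miR-450b-5p, from the hairpin beside that of miR-450a, shares its first 20 bases with miR-450a-5p. It is not among the rows of the tables, so reads of both could stand in the row of miR-450a-5p.

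The hairpins span 5309 bases on the X chromosome (chrX:137720933-137726241, GRCr8, minus strand), between the protein-coding genes Hprt1 and Plac1. In the direction of transcription the order is Mir322, Mir503, Mir351, Mir542, Mir450b-1 and Mir450a1. Mir322 and Mir503 lie 220 bases apart and Mir351 another 659 bases on, while 2861 bases separate Mir351 from Mir542. In the RefSeq annotation the lncRNA gene LOC102550366 (chrX:137724960-137729208) overlaps Mir322, Mir503 and Mir351 and ends before Mir542; its strand and exons were not used here. The hairpins of miR-322 and miR-542, of which both arms are members, are shown with the arms in capitals.
Mir322: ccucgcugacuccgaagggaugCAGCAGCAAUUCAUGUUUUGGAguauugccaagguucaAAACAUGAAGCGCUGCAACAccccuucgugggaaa
Mir542: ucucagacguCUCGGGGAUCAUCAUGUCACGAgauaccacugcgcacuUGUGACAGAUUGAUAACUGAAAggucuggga

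The level of the members ranged over more than 2 orders of magnitude. miR-322-5p was the most abundant, with a lowest, median and highest level of 1113, 1552 and 1883 CPM over the 16 libraries, followed by miR-351-5p with 717, 1112 and 2035 CPM. Of the cluster's summed level, 43.0% was miR-322-5p, 36.2% miR-351-5p and 13.4% miR-450a-5p, which ranged from 358 to 584 CPM around a median of 474 CPM. These 3 held ranks 51, 56 and 78 among the 306 miRNAs by mean level.

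The other members were less abundant. miR-322-3p ranged from 83.5 to 240.0 CPM (median 152 CPM), miR-542-3p from 66.0 to 131 CPM (median 93.0 CPM), miR-542-5p from 7.02 to 16.6 CPM (median 12.3 CPM) and miR-503-5p from 0.638 to 6.45 CPM (median 3.82 CPM). The order held in most but not all libraries: miR-322-5p lay above miR-351-5p in 12 of 16 and miR-322-3p above miR-542-3p in 14 of 16, so these neighbours overlap. miR-351-5p lay above miR-450a-5p, and miR-450a-5p above miR-322-3p, in 16 of 16. Reads of mature miRNAs of 20 to 25 bases need no scaling by length, but ligation to adapters differs between sequences, so that levels of different miRNAs are less comparable than those of 1 miRNA between libraries.

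**Figure D1:**
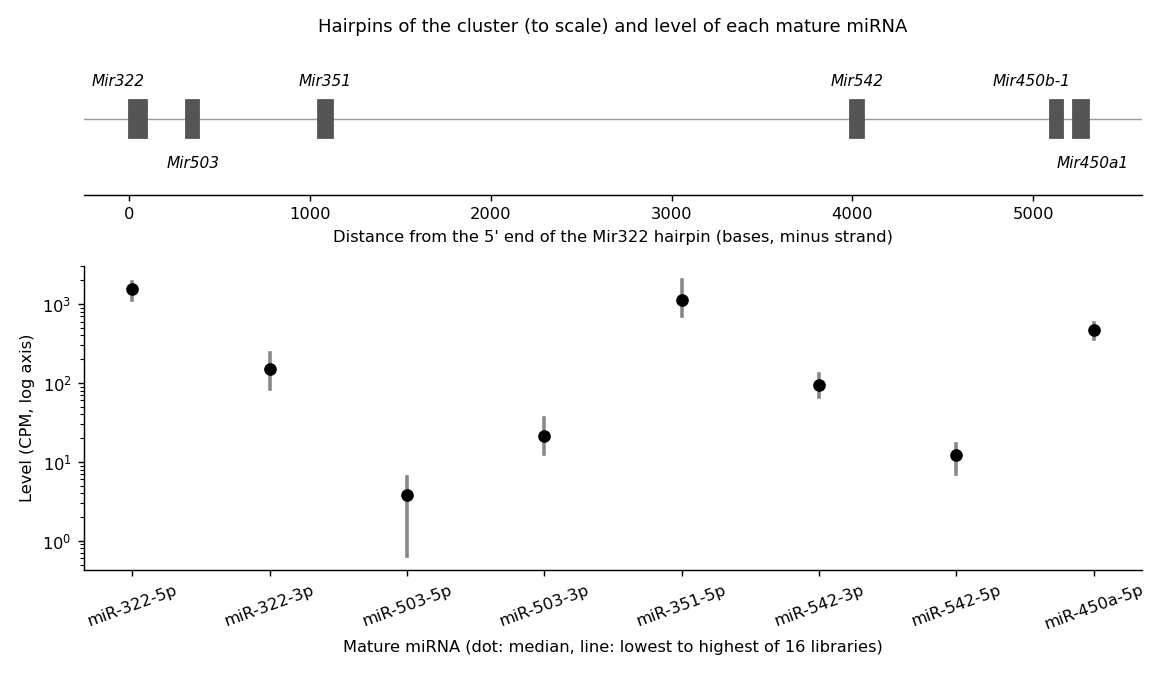
Upper panel: the 6 hairpins drawn to scale by distance in bases from the 5′ end of the Mir322 hairpin. Lower panel: level of each mature miRNA in CPM on a log axis (dot, median; line, lowest to highest of 16 libraries), with miR-322-5p highest at a median of 1552 CPM and miR-503-5p lowest at 3.82 CPM.

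miR-503, known with miR-322 as a repressor of the cell cycle, was close to the detection limit on its 5p arm. Its counts were 2 to 16 per library and under 10 in 10 of the 16, and they summed to 143, against 810 for miR-503-3p. The 3p arm had more counts in all 16 libraries, between 2.0 and 46.0 times as many. The depth of these libraries therefore gives miR-503-5p little precision, and its values are given as counts below.

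At 2 weeks the abundant members were lower and miR-542 was higher after 5/6Nx, but the edgeR test passed none of them. miR-322-5p had 1408 and 1488 CPM in sham pools A and B and 1144 and 1113 CPM in the 5/6Nx pools. miR-351-5p had 1039 and 1313 CPM in sham and 717 and 912 CPM after 5/6Nx. miR-450a-5p had 489 and 479 CPM in sham against 419 and 424 CPM. For all 3 both 5/6Nx pools lay below both sham pools, with log2 changes of -0.36 ± 0.15 (SE), -0.53 ± 0.16 and -0.20 ± 0.15 and edgeR adjusted p-values of 0.165, 0.0934 and 0.445.

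The lesser arm miR-322-3p lay lower as well, with 152 and 160 CPM in sham and 83.5 and 127 CPM after 5/6Nx (log2 -0.56 ± 0.26, edgeR adjusted p = 0.225), and so did miR-503-3p (30.7 and 29.4 against 12.5 and 21.1 CPM, log2 -0.81 ± 0.28, edgeR adjusted p = 0.102). In the other direction, miR-542-3p had 71.6 and 69.5 CPM in sham and 118 and 98.6 CPM after 5/6Nx (log2 0.61 ± 0.21, edgeR adjusted p = 0.102). miR-542-5p, from the same hairpin, had 9.01 and 7.02 CPM against 13.9 and 12.7 CPM (log2 0.75 ± 0.35, edgeR adjusted p = 0.236). miR-503-5p had 5 and 2 counts in sham and 9 and 6 counts after 5/6Nx (log2 1.64 ± 0.70, edgeR adjusted p = 0.187). Leaving out 1 library moved the log2 change of miR-503-5p between 0.77 (without week 2 sham pool B) and 2.69 (without sham pool A), and that of miR-322-3p between -0.35 (without 5/6Nx pool A) and -0.92 (without 5/6Nx pool B). The pools of the 2 groups thus did not overlap for any of the 7 members at this time.

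Of the 7 members, 3 lay with both 5/6Nx pools above and 4 with both below sham at week 2, where this held for 30.4% and 30.1% of the 306 miRNAs. In edgeR 0.654% of all miRNAs passed and 0 members did, and 5 members had an unadjusted p under 0.05 (20.9% of all miRNAs). DESeq2 passed 2 members, miR-322-5p and miR-351-5p, both lower. Over all miRNAs DESeq2 passed 37, where edgeR passed 2. The median log2 change of the members was -0.20 and that of all miRNAs 0.03. Without week 5 sham pool A the log2 changes at week 2 were -0.39 for miR-322-5p, -0.56 for miR-351-5p and 0.59 for miR-542-3p. Without week 5 sham pool B they were -0.43, -0.61 and 0.54, and that of miR-322-3p was -0.64. For miR-503-3p the log2 change was -0.83 without pool A and -0.87 without pool B of that group.

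Other measures moved with surgery at week 2. The authors' table of mapping gave 70.1% to 79.0% of reads mapped after 5/6Nx and 82.7% to 88.5% in sham. The summed level of the 5 cardiomyocyte miRNAs was 38029 to 45695 CPM after 5/6Nx and 51524 to 65054 CPM in sham, that of the 3 fibroblast miRNAs (both arms of miR-199a, and miR-214-3p) 2302 to 2412 against 2579 to 2595 CPM, and that of the 5 leukocyte miRNAs (miR-142, miR-150, miR-155 and miR-223) 2033 to 2568 against 2920 to 3465 CPM. The 2 erythrocyte miRNAs, miR-451 and miR-144, summed to 459 to 742 CPM against 213 to 267 CPM. The 2 smooth muscle miRNAs, miR-143 and miR-145, summed to 197090 to 208530 CPM against 148312 to 189476 CPM, with miR-145-5p called (log2 0.78, edgeR adjusted p = 0.0259), and the 2 endothelial miRNAs (both arms of miR-126a) to 30227 to 30687 CPM against 25085 to 27886 CPM. A sum follows its most abundant rows: 4 of the 5 leukocyte miRNAs had a log2 change above 0 (median 0.05), with miR-150-5p at -0.60, and so did 2 of the 3 fibroblast miRNAs (median 0.18). The part of these differences in the cluster's values was not tested.

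**Figure D2:**
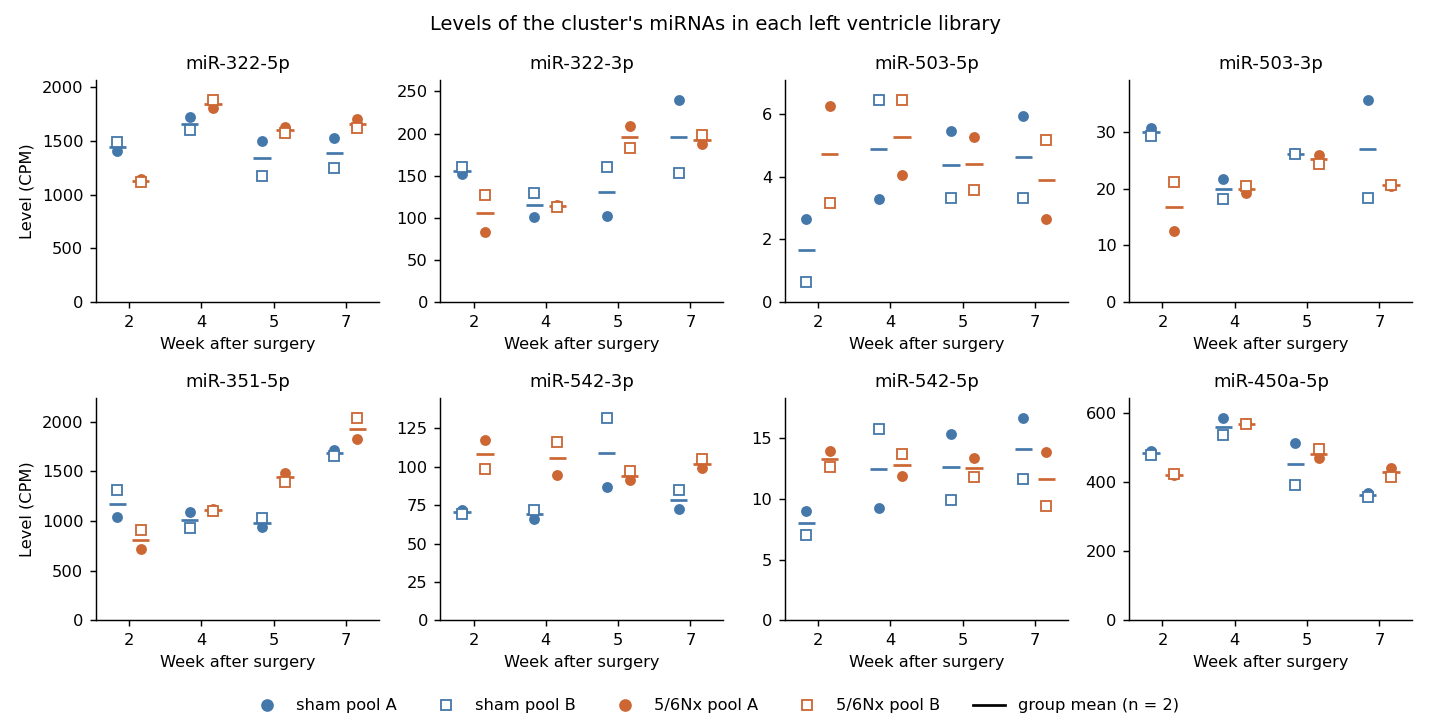
Level in CPM (linear axes from 0) of the 7 members and miR-503-3p in each library by week after surgery; circles are pool A, open squares pool B, and bars the mean of the 2 pools. At week 2 the 5/6Nx pools of miR-322-5p (1144 and 1113 CPM) lie below sham and those of miR-542-3p (118 and 98.6 CPM) above it, and miR-351-5p is highest at week 7 in both groups.

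At 4 weeks no member had both 5/6Nx pools below sham, and miR-542-3p was the member farthest above it. miR-542-3p had 66.0 and 72.2 CPM in sham and 94.7 and 116 CPM after 5/6Nx (log2 0.61 ± 0.21, edgeR adjusted p = 0.425). miR-322-5p had 1719 and 1600.2 CPM in sham and 1808 and 1883 CPM after 5/6Nx, where both pools lay above sham (log2 0.15 ± 0.14, edgeR adjusted p = 0.866). For miR-351-5p, with 1090 and 928 CPM against 1126 and 1098 CPM, for miR-322-3p, miR-450a-5p, miR-503-5p and miR-542-5p the change was smaller than its SE.

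Both 5/6Nx pools lay above sham for 3 of the 7 members at week 4 (miR-322-5p, miR-351-5p and miR-542-3p) and below sham for 0, against 16% and 28.4% of all miRNAs. No member passed in edgeR, where 0.654% of all did, and 1 of 7, miR-542-3p, had an unadjusted p under 0.05 (7.19% of all). DESeq2 passed 0. miR-542-3p passed in a fit of the 4 libraries of that week alone (log2 0.70, edgeR adjusted p = 0.0165). Over all miRNAs 2 passed at week 4 in the main fit and 2 to 16 in the other settings, this fit among them. Without week 5 sham pool B the log2 change of miR-542-3p at week 4 was 0.72. The median log2 change was 0.02 for the members and -0.08 for all miRNAs. At week 4 the cardiomyocyte miRNAs summed to 50248 to 60474 CPM after 5/6Nx and 68115 to 68529 CPM in sham, the fibroblast miRNAs to 2454 to 2551 against 2586 to 2727 CPM and the leukocyte miRNAs to 1589.8 to 1642 against 1808 to 2006 CPM. Their part in the cluster's values was not tested.

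At 5 weeks miR-351-5p and miR-322-3p lay above sham, the reverse of their side at week 2, and miR-542-3p did not. miR-351-5p had 941 and 1029 CPM in sham and 1487 and 1395 CPM after 5/6Nx (log2 0.55 ± 0.16, edgeR adjusted p = 0.171). miR-322-3p had 101 and 160.2 CPM in sham and 209 and 183 CPM after 5/6Nx (log2 0.58 ± 0.25, edgeR adjusted p = 0.426), and its log2 change was 0.16 without sham pool A and 0.83 without sham pool B of that week. miR-322-5p had 1501 and 1174 CPM against 1627 and 1571 CPM (log2 0.26 ± 0.14, edgeR adjusted p = 0.546). The pools did not overlap for these 3.

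For miR-542-3p the week 5 sham pools, with 86.8 and 131 CPM, enclosed both 5/6Nx pools at 91.4 and 97.1 CPM (log2 -0.21 ± 0.20, edgeR adjusted p = 0.742). The changes of miR-450a-5p, miR-503-5p and miR-542-5p were smaller than their SE. The sham pools of this week differed from each other in more than the cluster: the summed level of the smooth muscle miRNAs miR-143 and miR-145 was 82785 CPM in one and 259418 CPM in the other. Leaving out sham pool B turned the sign for miR-322-5p (log2 -0.025) and for miR-542-3p (log2 0.0022).

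Both 5/6Nx pools were above sham for 3 of 7 members at week 5 and below sham for 0, against 21.6% and 13.4% of all miRNAs. 0% of all miRNAs passed in edgeR. An unadjusted p under 0.05 was found for 2 members, miR-351-5p and miR-322-3p (8.82% of all), and DESeq2 passed 0 members. The median log2 change was 0.09 for the members and 0.05 for all miRNAs. Without sham pool B of that week the log2 change was 0.50 for miR-351-5p and 0.83 for miR-322-3p. The summed level of the 3 fibroblast miRNAs was 2737 to 2911 CPM after 5/6Nx and 2218 to 2293 CPM in sham; its part in these values was not tested.

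At 7 weeks the 3 most abundant members and miR-542-3p lay above sham, by small amounts. miR-322-5p had 1532 and 1249 CPM in sham and 1707 and 1619 CPM after 5/6Nx (log2 0.26 ± 0.15, edgeR adjusted p = 0.386). miR-351-5p had 1721 and 1651 CPM against 1826 and 2035 CPM (log2 0.19 ± 0.16, adjusted p = 0.528 in edgeR). miR-450a-5p had 368 and 358 CPM against 441 and 415 CPM (log2 0.24 ± 0.15, edgeR adjusted p = 0.416). With miR-542-3p, at 72.5 and 84.8 CPM in sham and 99.2 and 105 CPM after 5/6Nx (log2 0.38 ± 0.23, edgeR adjusted p = 0.402), these were the members whose 5/6Nx pools both exceeded both sham pools.

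That makes 4 of 7 above and 0 below at week 7, against 27.1% and 27.8% of all miRNAs. Of all miRNAs 4.25% passed in edgeR and 0 of the 7 members did. None had an unadjusted p under 0.05, where 19.9% of all miRNAs did, and DESeq2 passed 0. The median log2 change was 0.19 for the members and -0.04 for all miRNAs. miR-322-3p, miR-503-5p and miR-542-5p changed by less than their SE, and the sham pools for miR-503-3p, with 35.6 and 18.3 CPM, enclosed both 5/6Nx pools at 20.5 and 20.6 CPM (log2 -0.44 ± 0.33, edgeR adjusted p = 0.499; 0.16 without sham pool A of that week). The 3 fibroblast miRNAs summed to 3123 to 3182 CPM after 5/6Nx and 2309.8 to 2385 CPM in sham, with 3 of 3 above 0 and miR-199a-5p called (log2 0.91, edgeR adjusted p = 0.00756). The cardiomyocyte miRNAs summed to 55281 to 57164 CPM against 64148 to 69277 CPM, although miR-208b-3p among them was called higher (log2 1.48, edgeR adjusted p = 0.000536). The leukocyte miRNAs summed to 1049.9 to 1181 against 1219 to 1323 CPM, with miR-223-3p called higher (log2 1.19, edgeR adjusted p = 0.00733). Of these 5 leukocyte miRNAs, 4 had a log2 change above 0 (median 0.38), and miR-150-5p was at -0.48. The percent of reads mapped was 87.6% to 89.3% after 5/6Nx and 91.3% to 92.7% in sham. The part of these differences in the cluster's values was not tested.

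**Figure D3:**
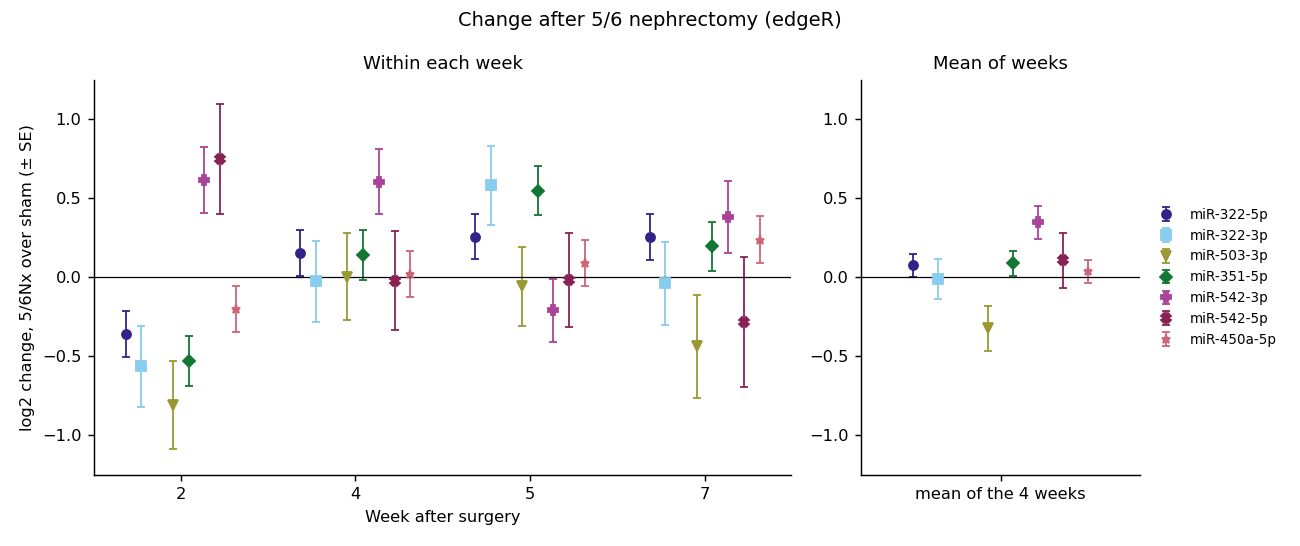
log2 change of 5/6Nx over sham with its SE from edgeR, shown week by week and as the average of the 4 changes, for 6 members and miR-503-3p; miR-503-5p, with a change of 1.64 ± 0.70 at week 2 on 2 to 9 counts a library, is left out. At week 2 miR-322-5p, miR-322-3p, miR-351-5p and miR-450a-5p lie below 0 and both arms of miR-542 above it, and at week 5 miR-351-5p lies at 0.55.

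Averaged over the 4 weeks most members lay near 0. miR-542-3p was the member with the smallest p, with a mean log2 change of 0.35 ± 0.11 (edgeR adjusted p = 0.0596), and its 5/6Nx pools lay above sham at weeks 2, 4 and 7 but not at week 5. Without week 5 sham pool B the mean log2 change of miR-542-3p was 0.41. The other members had mean log2 changes of 0.08 ± 0.07 for miR-322-5p and 0.09 ± 0.08 for miR-351-5p, with the remaining 4 within their SE of 0. In edgeR 0 of 7 members passed where 5.56% of all miRNAs did, 1 had an unadjusted p under 0.05 (22.2% of all), and DESeq2 passed 0. miR-503-3p had a mean of -0.32 ± 0.14 (edgeR adjusted p = 0.183).

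The change of miR-351-5p passed as different in 1 of the 6 pairs of weeks, with p-values adjusted within a pair and not over the pairs. Its log2 change at week 5 exceeded that at week 2 by 1.08 ± 0.22 (edgeR adjusted p = 0.0368), with both 5/6Nx pools below both sham pools at week 2 and above them at week 5. This was the 1 member to pass in any of the 6 pairs of weeks, and 1.31% of the 306 miRNAs passed for this pair. For the other pairs 0% (weeks 2 and 4), 0.98% (2 and 7), 1.31% (4 and 5), 3.59% (4 and 7) and 1.31% (5 and 7) of all miRNAs passed. The same difference was 1.15 ± 0.36 for miR-322-3p, 0.62 ± 0.21 for miR-322-5p and -0.82 ± 0.29 for miR-542-3p, which did not pass (edgeR adjusted p = 0.0934, 0.113 and 0.135). Without week 5 sham pool A the difference was 0.70 for miR-322-5p and -1.20 for miR-542-3p. Without week 5 sham pool B it was 1.47 for miR-322-3p. miR-125a-5p and miR-125b-5p have the seed of miR-351-5p. With all 16 libraries their difference was 0.40 ± 0.25 and 0.31 ± 0.25 (edgeR adjusted p = 0.364 and 0.491).

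The call for miR-351-5p rests on several libraries: leaving out any 1 of 8 of the 16 ended it. These were week 2 sham pool B (edgeR adjusted p = 0.266) and 5/6Nx pool A (0.198), week 4 sham pool B (0.0536) and 5/6Nx pool A (0.0587), week 5 5/6Nx pools A (0.201) and B (0.0783), and week 7 sham pools A (0.0695) and B (0.0666). The difference stayed between 0.90 and 1.22 in all 16 of these fits. In the test of any difference among the 4 weekly changes, 0 of 7 members passed in edgeR, where 1.63% of all did, with an adjusted p = 0.0619 for miR-351-5p. An unadjusted p under 0.05 was found there for 4 members, both arms of miR-322, miR-351-5p and miR-542-3p (19.9% of all miRNAs). DESeq2 passed miR-322-5p and miR-351-5p. Over all miRNAs 5 passed in edgeR, and 1 to 27 in the other settings, DESeq2 among them. In edgeR, which members passed that test, and how many of all miRNAs did, changed with the library left out.

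The changes of miR-542-3p and miR-351-5p had opposite signs at weeks 2 and 5 but not at weeks 4 and 7. At week 5 that of miR-542-3p turned its sign without sham pool B. The level of miR-542-3p relative to miR-351-5p within a library was chosen after the values were seen and is given without a test. At week 2 it was 6.89% and 5.30% in sham pools A and B and 16.4% and 10.8% after 5/6Nx. At week 5 it was 9.23% and 12.8% in sham and 6.15% and 6.96% after 5/6Nx. At week 7 it was 4.21% and 5.14% in sham and 5.43% and 5.16% after 5/6Nx. The groups did not overlap in any of the 4 weeks, narrowly so at week 7, and the 5/6Nx pools were the higher ones at weeks 2, 4 and 7 and the lower ones at week 5.

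**Figure D4:**
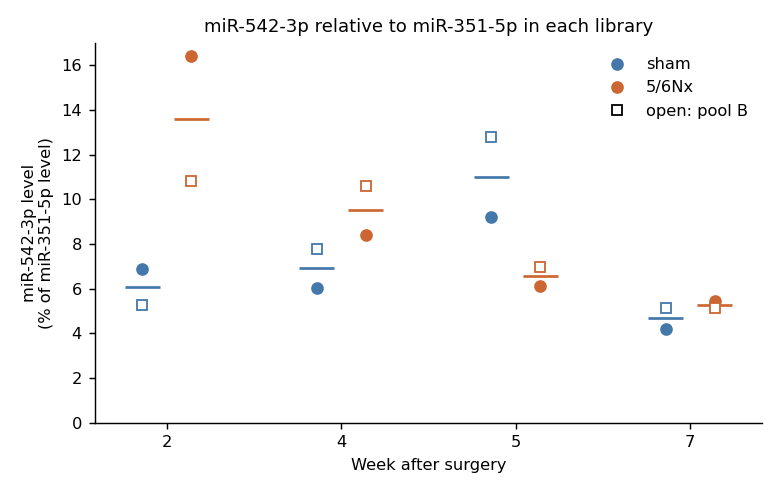
Level of miR-542-3p as a percent of the level of miR-351-5p in each library, by week; filled circles are pool A, open squares pool B, and bars the mean of the 2 pools. The 5/6Nx pools lie above sham at week 2 (16.4% and 10.8% against 6.89% and 5.30%) and below it at week 5 (6.15% and 6.96% against 9.23% and 12.8%).

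Within hairpins the balance of the arms was tested, since a ratio within a library does not depend on library size. miR-322-5p had 6.38 to 17.0 times the level of miR-322-3p over the 16 libraries, with a median of 9.17. After 5/6Nx the log2 ratio was higher by a weekly mean of 0.08 (exact two-sided permutation test within weeks, p = 0.650, adjusted over both hairpins p = 0.650), from -0.35 at week 5 to 0.26 at week 7. miR-542-3p had 4.31 to 12.9 times the level of miR-542-5p (median 7.72), and 5/6Nx differed from sham by a mean log2 of 0.21 (exact permutation p = 0.341, adjusted p = 0.650), from -0.20 at week 5 to 0.65 at week 7. The smallest p this test can give is 0.00154. Neither difference exceeded the spread between pools.

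Among sham hearts the level of 2 of the 7 members differed between weeks, which is near the share of all miRNAs (31.4%). miR-351-5p had 1176 ± 194 CPM (SD, n = 2) at week 2, 1009 ± 115 CPM at week 4, 985 ± 62.2 CPM at week 5 and 1686 ± 49.5 CPM at week 7 (edgeR test with 3 degrees of freedom, adjusted p = 0.00450). miR-450a-5p went the other way, with 484 ± 6.78, 560.4 ± 33.1, 452 ± 85.8 and 363 ± 7.57 CPM at the same weeks (edgeR adjusted p = 0.0299). The 5/6Nx pools had their highest miR-351-5p level at week 7 too, at 1931 ± 147 CPM. In sham 31.4% of all miRNAs passed this test and 43.8% had an unadjusted p under 0.05, as did 3 of the 7 members, with miR-542-3p the third.

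Which members passed the edgeR test between sham weeks, and how many of all miRNAs did, changed with the library left out. The calls for miR-351-5p and miR-450a-5p were lost without the 4 libraries of week 7, a setting chosen after the data were seen. There 0 of 7 members passed in edgeR, with an adjusted p = 0.378 for miR-351-5p and 0.558 for miR-450a-5p. Over all miRNAs 96 passed in the main fit and 28 to 121 in the other settings, this one among them. Whether the loss is particular to these members was not tested. The week 7 table lists 325 rat miRNAs against 358 in each of the others and its sham libraries are the shallowest, so the time after surgery and the table cannot be told apart. The call for miR-351-5p was kept without any 1 library (adjusted p between 0.000231 and 0.0392). That for miR-450a-5p was lost in 9 of 16 such fits, with adjusted p-values of 0.0532 to 0.156: those without either sham pool of weeks 2, 4 or 7, without week 4 5/6Nx pool B, or without either week 5 5/6Nx pool. It was also lost with DESeq2 size factors in place of TMM in edgeR (adjusted p = 0.0620), where miR-542-3p passed instead (0.0495).

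Across the libraries the members did not vary as 1 unit. After the mean of each week was subtracted from log2 CPM, miR-322-5p correlated with miR-450a-5p at r = 0.86 and with miR-351-5p at r = 0.71, although 4 other hairpins lie between Mir322 and Mir450a1. miR-322-5p correlated with its own other arm at r = 0.43. miR-542-3p, whose hairpin lies between those of miR-351 and miR-450a, had r of -0.30 with miR-322-5p, -0.30 with miR-351-5p and -0.34 with miR-450a-5p, and r = 0.16 with miR-542-5p. These are descriptions over 16 libraries that differ in depth and surgery, whose part in the correlations was not tested. miR-542-5p and miR-503-5p, which correlated at r = 0.74, both rest on low counts.

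**Figure D5:**
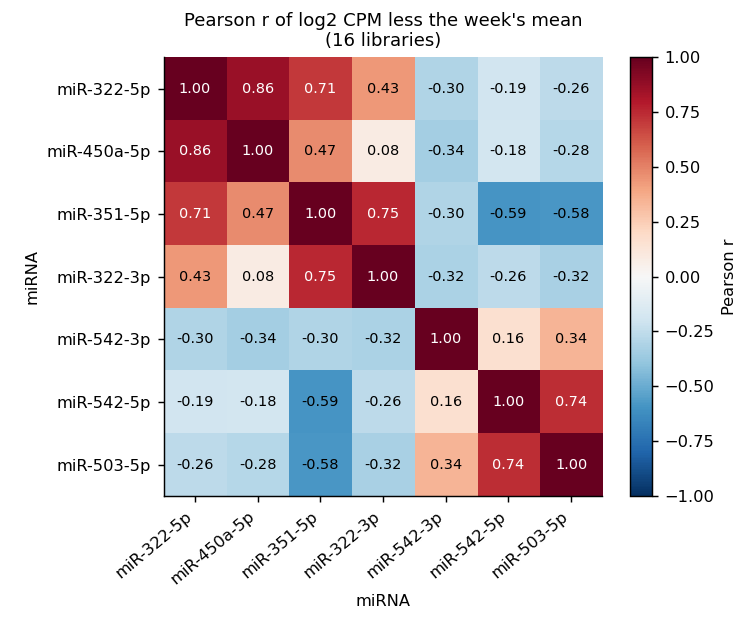
Pearson correlation between members of log2 CPM less the mean of the week, over 16 libraries (colour scale from -1 to 1). miR-322-5p, miR-450a-5p and miR-351-5p form a block with r of 0.47 to 0.86, and miR-542-3p has negative values with each of them.

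For single members the most alike of the miRNAs with at least 50 CPM, other cluster rows included, lay inside the cluster for miR-322-5p (miR-450a-5p), for miR-450a-5p (miR-322-5p, r = 0.86), for miR-351-5p (miR-322-3p, r = 0.75) and for miR-542-5p (miR-503-5p). It lay outside for miR-542-3p (miR-103-3p, r = 0.82), for miR-322-3p (miR-92a-3p, r = 0.79) and for miR-503-5p (miR-22-5p, r = 0.84). The mean of the 7 members was most like miR-30b-5p (r = 0.69), miR-872-3p (r = 0.67), miR-652-3p (r = 0.65), miR-27b-3p (r = 0.63) and miR-210-3p (r = 0.59), of 156 miRNAs compared. Each member weighed the same in this mean on the log2 scale, the low-count miR-503-5p and miR-542-5p included.

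The miRNAs outside the cluster that carry its seeds did not pass for surgery in any single week either. Of miR-15b-5p, miR-16-5p, miR-195-5p and miR-497-5p, 0 of 4 passed in any week, and their median log2 changes were 0.06 (week 2), 0.18 (week 4), -0.08 (week 5) and 0.01 (week 7). miR-15a-5p was not among the miRNAs tested. The change farthest from 0 was that of miR-195-5p at week 2, with a log2 of 0.59 ± 0.21 (edgeR adjusted p = 0.102). Their summed level was 4590 to 9218 CPM per library, so miR-322-5p was the smaller part of the miRNAs with this seed in every library. The 2 miR-125 miRNAs summed to between 4375 and 8229 CPM, also above miR-351-5p. At week 2 they had log2 changes of -0.27 ± 0.17 for miR-125a-5p and -0.20 ± 0.18 for miR-125b-5p (edgeR adjusted p = 0.384 and 0.522). Between sham weeks, where 2 cluster members passed, miR-15b-5p (edgeR adjusted p = 0.0456), miR-195-5p (0.0281), miR-497-5p (0.00351) and miR-125b-5p (0.0115) passed too, and miR-16-5p (0.118) and miR-125a-5p (0.448) did not.

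The authors' deposited tables, with tests within each week by DESeq, gave an adjusted p of 1 for all 7 members in all 4 weeks. Their smallest unadjusted p for a member was 0.0607, for miR-542-3p at week 4. The log2 changes in the authors' deposited table for miR-351-5p were -0.57, 0.27, 0.53 and 0.23 at weeks 2, 4, 5 and 7.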

How the data were processed

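Per the labels' protocols, Trizol RNA of ventricles went into TruSeq small RNA libraries for an Illumina HiSeq. Cutadapt, Bowtie and DESeq stand in the submitters' processing notes. Their versions, the build and the annotation were not given in the sources used here, and neither was the treatment of reads that match several miRNAs. The deposited tables hold raw counts per library, not normalized, and the authors' p-values and log2 fold changes, per the file headers. A deposited table gives reads and the percent mapped. Columns name pools by letter and titles by number, so columns were tied to groups only.

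edgeR 4.0.16 (R 4.3.3) was fitted to the 16 libraries at once, with 8 group means, TMM scaling and a filter by group at a minimum count of 10. Quasi-likelihood F tests were adjusted by Benjamini-Hochberg over 306 miRNAs within a comparison; the threshold was 0.05. Entries for other species and loci, which can repeat reads, were left out. The SE is the change over the root of F. A change smaller than its SE was given no direction. CPM uses TMM library sizes; the arm ratio used a prior count of 0.5. DESeq2 1.42.0 and other settings were alternatives. Counting error and pool spread limit the precision; no label names molecular identifiers. The text names all members, miRNAs that share their seeds and the miRNAs most alike. The members and lists were chosen with earlier results of these data known. Scripts were tested on simulated data.

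No other entry kept its counts within 10% of a fixed ratio to miR-322-5p, miR-322-3p, miR-351-5p, miR-542-3p or miR-450a-5p in every library; miR-542-5p and miR-503-5p were too low to check.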

Additional observations from a re-analysis of the deposited data

Results flagged for a closer look

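The difference of miR-351-5p between weeks stands out because the effects of surgery at 2 times went opposite ways and the difference itself passed its test. The log2 change at week 5 less that at week 2 was 1.08, with 814 ± 138 CPM after 5/6Nx against 1176 ± 194 CPM in sham at week 2 (SD, n = 2) and 1441 ± 64.8 against 985 ± 62.2 CPM at week 5. The change at neither week passed alone in edgeR (adjusted p = 0.0934 and 0.171). Fewer reads mapped after 5/6Nx at week 2 (70.1% to 79.0% against 82.7% to 88.5%), while at week 5 the groups overlapped (84.9% to 86.1% against 81.1% to 86.3%); the part of mapping in the difference was not tested.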

How the results depend on the processing

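Among the 7 members, the count that passed in edgeR was 0 in each week, for the mean, and for the test of differences among weeks. Under DESeq2 it was 2 at week 2, where 37 of all miRNAs passed, and 2 for differences among weeks. With only the 4 libraries of week 4 it was 1 in that week. The count for sham weeks was 2, against 4 under DESeq2, 1 with all entries of the tables and 0 without week 7. It was also 2 with DESeq2 size factors in edgeR, but there miR-542-3p passed (adjusted p = 0.0495) and miR-450a-5p did not (0.0620). Counted over members and the 6 pairs of weeks, 1 difference passed, against 5 under DESeq2 and 0 with all entries, where miR-351-5p had an adjusted p = 0.0661. For the pairs of weeks, the share of all miRNAs that passed was counted in the main fit only. The count under DESeq2, and those without 1 library given below, therefore have no share of all miRNAs beside them. With the pool letter as a replicate block the counts were 0 in each week and 2 for sham weeks, and the call for miR-351-5p between weeks held (adjusted p = 0.0456); the letters are not known to pair the pools, and the correlations of the pool differences of sham and 5/6Nx were -0.18 to 0.10 over the 4 weeks. The block changed no call.

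Leaving out 1 library gave 0 to 4 members at week 2, 0 to 1 at week 4, 0 to 2 at week 5, 0 at week 7, 0 to 1 for the mean, 0 to 3 among weeks, 1 to 4 for sham weeks and 0 to 7 for members and pairs of weeks. Over all miRNAs the counts were 0 to 56 (main 2) at week 2, 0 to 4 (2) at week 4, 0 to 63 (0) at week 5, 5 to 49 (13) at week 7, 8 to 68 (17) for the mean, 1 to 75 (5) among weeks and 52 to 161 (96) for sham weeks. The other settings gave 0 to 37, 2 to 16, 0 to 7, 13 to 34, 0 to 26, 1 to 27 and 28 to 121 in the same order. The arm ratio of miR-322 ranged from -0.049 to 0.20 and that of miR-542 from 0.06 to 0.37, with the sign for miR-322 turning without week 2 5/6Nx pool A (-0.0021) or week 5 sham pool B (-0.049). Without 1 library the log2 change at week 5 ranged from -0.025 to 0.32 for miR-322-5p and from -0.61 to 0.0022 for miR-542-3p, both turning without week 5 sham pool B, and that of miR-503-3p at week 7 from -0.77 to 0.16, turning without week 7 sham pool A. With all entries the median of all miRNAs at week 4 moved by 0.11 and in the fit of that week alone by 0.10 (log2). Without week 5 sham pool B or week 5 5/6Nx pool A it moved by 0.12 at week 4 and by -0.16 at week 5. The cause of these moves was not tested. The low counts of miR-503-5p and miR-542-5p limit what can be said of them.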

Other observations

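1 deposited genomic locus on the X chromosome (139999836 to 139999970 in the files' coordinates, whose build is not given in the sources used here) held 0.810 to 0.944 times as many counts as miR-503-3p, and in every library this ratio stayed within 10% of its median, 0.877. Whether reads were counted under both entries was not tested, and the locus entered no comparison.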
